A study of Mus musculus with 6 samples.

Results

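The homeobox genes of positional identity were examined in cultured cardiac fibroblasts (CFs) of mice. They were chosen by symbol alone. Every *Hox*, *Pitx*, *Meis*, *Pbx*, *Six2*-type, *Lhx*, *Alx*, *Msx*, *Dlx*, *Prrx*, *Irx*, *Emx*, *Barx* and *Shox* gene of the table was taken. The rule itself uses no measured value, although the authors had left thinly read genes out of the table. This gave 62 of the 19446 genes of the table, of which 26 were *Hox* genes and 36 belonged to other families. The annotation used here lists 39 *Hox* genes, so the clusters were not complete. The same rule also named the *Lmx1* genes, but its pattern matched no symbol of that family. Of the 62 genes, 54 had at least 10 reads in at least 2 libraries and were tested, 21 of them *Hox* genes and 33 others, and 8 were too low to be tested.

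The study compared wild-type (WT) with CharmeKO mice, which lack a functional copy of *Charme*, a long non-coding RNA gene of striated muscle that was disrupted by inserting a polyadenylation signal. CFs were grown from 5-week-old mice, as outgrowths of minced atrial tissue of pooled littermates on fibronectin-coated dishes, in medium with 20% serum, and no group received any other treatment. There were 3 libraries of poly(A) RNA in each group, with 38330019 to 46797446 reads assigned to genes. Each library therefore stands for a pool of animals and for the cells that left the explants and grew, and bulk RNA cannot tell fewer cells of a type from less RNA per cell.

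The disrupted locus was examined first. The only feature without an Ensembl identifier, CUFF405, was taken as the *Charme* entry, which is an inference from its name. It had 5, 15 and 11 reads in WT 1 to 3 and 0, 6 and 3 in CharmeKO 1 to 3, and its groups overlapped. The paper reports very low *Charme* expression in CFs, so on these few reads CUFF405 was a weak check of the labels. Summed fibroblast markers lay between 25393 and 53913 CPM (reads relative to the library's total) in the 6 libraries. No marker of the fibroblast list was at 0 in all of them, but this holds for every gene of the table and so says nothing about the cells. Summed cardiomyocyte markers lay between 5.61 and 24.5 CPM, while *Myh6*, *Myl7*, *Nppa* and *Pln* were not analysed here.

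Homeobox genes encode transcription factors that bind DNA through a conserved domain, and many of them record where along the body a cell arose. The *Hox* genes lie in 4 clusters in which their order on the chromosome matches the order of their domains from head to tail, with low paralogue numbers expressed from more anterior levels than high ones. Fibroblasts are known to keep such a *Hox* pattern in culture. Meis and Pbx proteins bind DNA together with Hox proteins. Shox2 and the Irx, Msx and Prrx factors act in the sinoatrial node, in the ventricle, in valves and in mesenchyme, in that order.

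Levels were compared between genes as normalised reads per kilobase of exon, averaged over the 6 libraries. *Prrx1*, a mesenchymal factor, was the highest homeobox gene with 1602, above 92.8% of the tested genes. *Hoxa5* followed with 765, and *Hoxb3* and *Hoxb4* were also high with 478 and 442. At the other end, *Alx4*, *Lhx4* and *Hoxa10* averaged 0.470, 0.570 and 0.605 on the same scale. The order of neighbours such as *Hoxb3* and *Hoxb4* was not separated beyond the spread between libraries, since *Hoxb3* alone had 1143, 2139 and 2338 normalised reads in WT 1 to 3 and 1116, 2258 and 3201 in CharmeKO 1 to 3.

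No homeobox gene differed between the genotypes in the main test, limma on log2(value + 1) of the deposited normalised reads with p-values adjusted over all genes (0 of 54, against 0% of the 15948 genes tested). None had an unadjusted p under 0.05 either (0 of 54, against 0.897%). edgeR on the recovered reads and DESeq2, both without the replicate block, also called 0 of them. Of the 54 genes, 32 were lower in CharmeKO in limma (59.3%, against 49.6% of all genes), and their median log2 fold change was -0.14, against 0.0022 over all genes. In edgeR and DESeq2, both without the block, 28 of them were lower, with medians of -0.0043 and -0.013. An absolute log2 fold change of 1 or more in limma was reached by 11 genes (against 5.04%), yet none of these passed the test.

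The homeobox genes spread more between libraries than most genes of the table. The highest library was at least 10 times the lowest, on the log2(value + 1) scale, for 24 of the 54 genes (against 10.5% of all genes). The median ratio of highest to lowest library was 7.62 for the homeobox genes and 2.11 for all genes tested. Such a spread was not particular to them, since it was 7.02 for 17 cardiac field and left-right factors, 6 of which reached 10 times, and 30.1 for 10 smooth muscle and pericyte markers, all of which did. These shares are descriptions, since low genes spread more by counting alone and genes of 1 cluster share their neighbourhood.

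The *Hoxb* cluster gave the clearest view of this spread. It runs along chromosome 11 from *Hoxb9* (96271457 to 96276595) to *Hoxb2* (96350525 to 96354012) on the plus strand of GRCm38, and the starts of these genes lie 79.1 kb apart. *Hoxb2* had 820.3, 987 and 1419 normalised reads in WT 1 to 3 and 922, 947 and 1181 in CharmeKO 1 to 3. *Hoxb4* had 621, 1296 and 1464 in WT and 731, 1329 and 1361 in CharmeKO. The CharmeKO values lay within the range of WT for both genes, and the highest library was only 1.73 and 2.36 times the lowest.

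Past *Hoxb4* the picture changed. *Hoxb5*, whose start lies 14.9 kb from that of *Hoxb4*, had 97.5, 242 and 621 normalised reads in WT and 68.3, 477 and 126 in CharmeKO. *Hoxb6* had 56.1, 414 and 718 in WT and 49.0, 488 and 98.3 in CharmeKO. *Hoxb7* had 39.4, 543 and 442 in WT and 21.2, 625 and 49.6 in CharmeKO. In each of these genes WT 2, WT 3 and CharmeKO 2 were the 3 highest libraries, so high and low libraries occurred within both genotypes.

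*Hoxb8*, 36.4 kb from *Hoxb4* by their starts, had 21.7, 626 and 1137 normalised reads in WT and 27.9, 1281 and 83.5 in CharmeKO. *Hoxb9* had 26.6, 90.8 and 588 in WT and 36.5, 653 and 6.96 in CharmeKO. The ratio of highest to lowest library thus went from 9.09 for *Hoxb5* through 14.7, 29.6 and 59.1 to 93.8 for *Hoxb9*. None of the 5 genes separated WT from CharmeKO, with log2 fold changes between -1.26 (SE 1.50, *Hoxb7*) and -0.61 (SE 0.910, *Hoxb5*). The 95% interval for *Hoxb8* ran from -5.31 to 3.73, so these libraries could show neither a large nor a small effect of genotype on it, while that for *Hoxb4* ran from -0.92 to 1.03.

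The change within the cluster was also seen as a ratio of reads in the same library. *Hoxb8* had 0.0349, 0.483 and 0.776 reads for each read of *Hoxb4* in WT 1 to 3, and 0.0382, 0.964 and 0.0613 in CharmeKO 1 to 3. A ratio within a library does not depend on how the libraries were scaled. WT 1, CharmeKO 1 and CharmeKO 3 were low by this measure, and WT 2, WT 3 and CharmeKO 2 were high, in both genotypes.

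**Figure D1:**
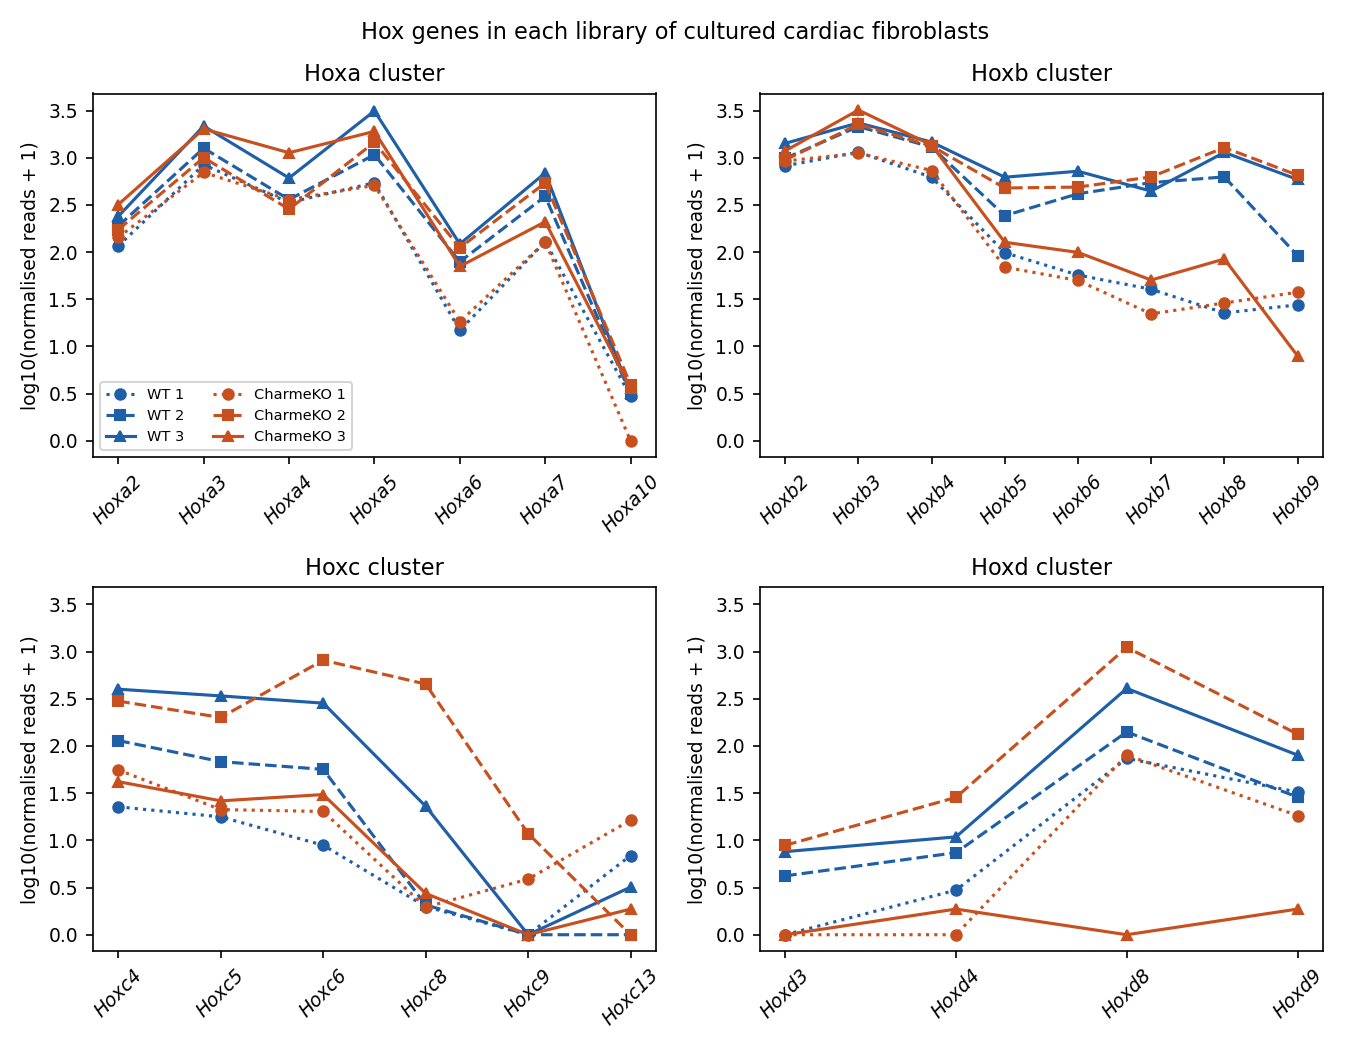
The values of 25 *Hox* genes in each library, 1 panel per cluster. The x axis gives the genes by paralogue number and the y axis log10(normalised reads + 1), with WT in blue and CharmeKO in orange and the marker giving the replicate number. In the *Hoxb* panel the 6 lines lie close together up to *Hoxb4* and part from *Hoxb5* on, where WT 2, WT 3 and CharmeKO 2 stay high.

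The *Hoxa* cluster (chromosome 6, minus strand) varied less. *Hoxa5*, which is known for its part in lung and axial patterning, was the most read *Hoxa* gene, with 543, 1076 and 3131 normalised reads in WT and 509, 1457 and 1901 in CharmeKO. Its log2 fold change was -0.13 (SE 0.745). The ratio of highest to lowest library was 2.76 for *Hoxa2*, 3.10 for *Hoxa3* and 3.97 for *Hoxa4*, and 6.16, 8.77 and 5.44 for *Hoxa5*, *Hoxa6* and *Hoxa7*. *Hoxa2* and *Hoxa3* share 15.0% and 8.01% of their exon length with the overlapping gene Gm28308 on the same strand, where reads may have been dropped in counting.

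In the *Hoxc* cluster (chromosome 15, plus strand) even the lowest-numbered gene varied widely. *Hoxc4* had 21.7, 113.2 and 399 normalised reads in WT and 54.8, 298 and 40.9 in CharmeKO, and *Hoxc5* had 16.7, 67.3 and 338 in WT and 20.2, 199.6 and 25.2 in CharmeKO. *Hoxc6* had 7.88, 55.5 and 283 in WT and 19.2, 810.1 and 29.6 in CharmeKO. *Hoxc8* had 1, 1 and 20 reads in WT and 1, 460 and 2 reads in CharmeKO. The 1 library that stood out was CharmeKO 2, whose *Hoxc8* value was 470.4 times that of CharmeKO 1 (95% exact interval of the counts 84.0 to 18619, counting error only), while the other 2 CharmeKO libraries were as low as WT 1 and WT 2.

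The 2 tested *Hoxd* genes behaved in the same way. *Hoxd8* (chromosome 2, 74704615 to 74707933, plus strand) had 72.9, 139.9 and 406 normalised reads in WT and 78.8, 1109 and 0 in CharmeKO. With 0 reads in CharmeKO 3, CharmeKO 2 was at least 425-fold higher than that library at a floor of 3 reads. *Hoxd9* had 32, 26 and 72 reads in WT and 18, 135 and 1 in CharmeKO, so CharmeKO held both the highest and the lowest library of either gene. Their log2 fold changes were -1.86 (SE 2.39) and -1.34 (SE 1.49).

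The 8 tested genes with paralogue numbers 1 to 4, none of them a *Hoxd* gene, had a median ratio of highest to lowest library of 2.82. They ran from 1.73 for *Hoxb2* to 18.4 for *Hoxc4*, the only *Hoxc* gene among them. The 13 tested genes with numbers 5 to 9 had a median of 29.6, and in 9 of them the ratio was over 10, against 1 of the 8. This split of the numbers was made after the values had been seen and was not tested. It did not separate number from cluster. *Hoxa5*, *Hoxa6* and *Hoxa7* had ratios of 6.16, 8.77 and 5.44, and all ratios over 10 were those of *Hoxb*, *Hoxc* and *Hoxd* genes. WT 2, WT 3 and CharmeKO 2 were the 3 highest libraries for 10 of the 13 and for 1 of the 8. The lowest library of the 13 genes was WT 1 in 4, CharmeKO 1 in 6 and CharmeKO 3 in 3.

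Summed over genes, the 10 analysed *Hox* genes numbered 1 to 4 took 95.2, 161 and 210 CPM in WT 1 to 3 and 97.0, 165 and 232 CPM in CharmeKO 1 to 3. The 14 genes numbered 5 to 9 took 24.8, 91.7 and 203 CPM in WT and 23.1, 213 and 63.9 CPM in CharmeKO. CharmeKO 3 therefore had the most reads of the low-numbered genes of any library, but fewer of the high-numbered ones than any library other than WT 1 and CharmeKO 1. The *Hoxa* genes were its exception, with 53.5 CPM over *Hoxa5*, *Hoxa6* and *Hoxa7*, close to the 53.8 CPM of CharmeKO 2.

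**Figure D2:**
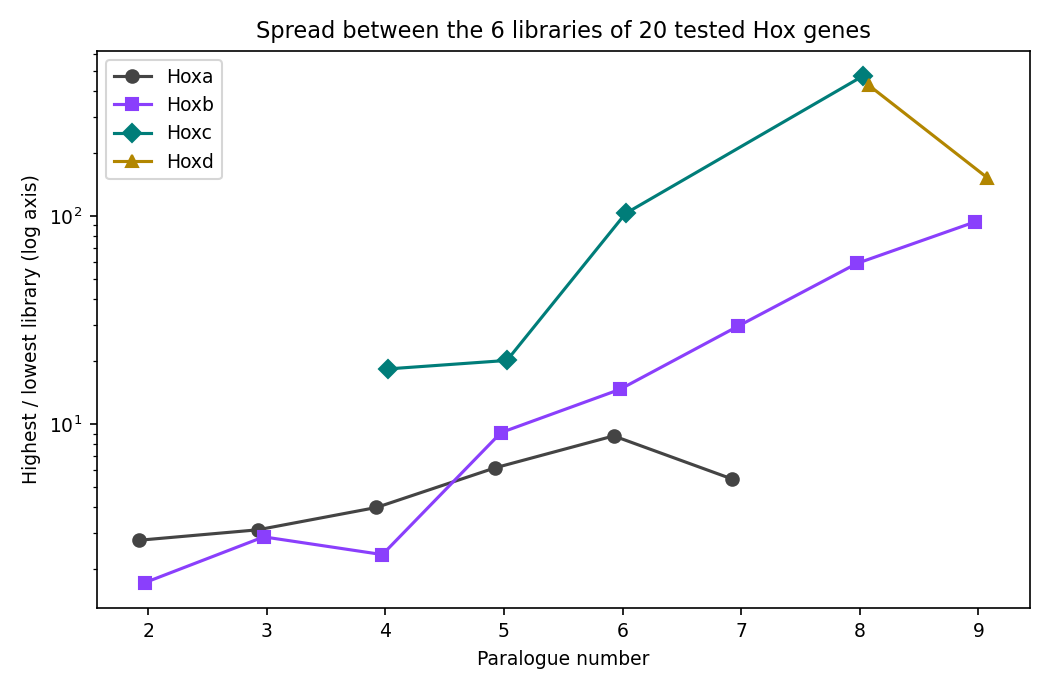
Ratio of the highest to the lowest of the 6 libraries (y axis, log scale) against paralogue number (x axis) for 20 of the 21 tested *Hox* genes, 1 line per cluster, with the lowest library of *Hoxd8* set to the floor of 3 reads. In the *Hoxb* cluster the ratio goes from 1.73 at *Hoxb2* to 93.8 at *Hoxb9*, and *Hoxc8* and *Hoxd8* are the highest points at 470.4 and 425.

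Libraries were paired by replicate number, although the labels do not say what same-numbered libraries share. Deviations from the group means went together least in pair 3 (r = 0.217, against 0.222 for WT 2 with CharmeKO 3). Within these pairs the 13 genes numbered 5 to 9 went opposite ways. In pair 2 all 13 were higher in CharmeKO, by a median of 1.03 on the log2 scale, and in pair 3 all 13 were lower, by a median of -3.13. In pair 1, 7 were lower and 6 higher, with a median of -0.013. The 8 genes numbered 1 to 4 had medians of 0.14, -0.093 and -0.10 in pairs 1, 2 and 3. Each pair is a single comparison of 1 library with 1 other, and genes of a cluster are not independent of each other. WT 3 exceeded CharmeKO 3 as CharmeKO 2 exceeded WT 2, and genotype did not separate the 13 genes.

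**Figure D3:**
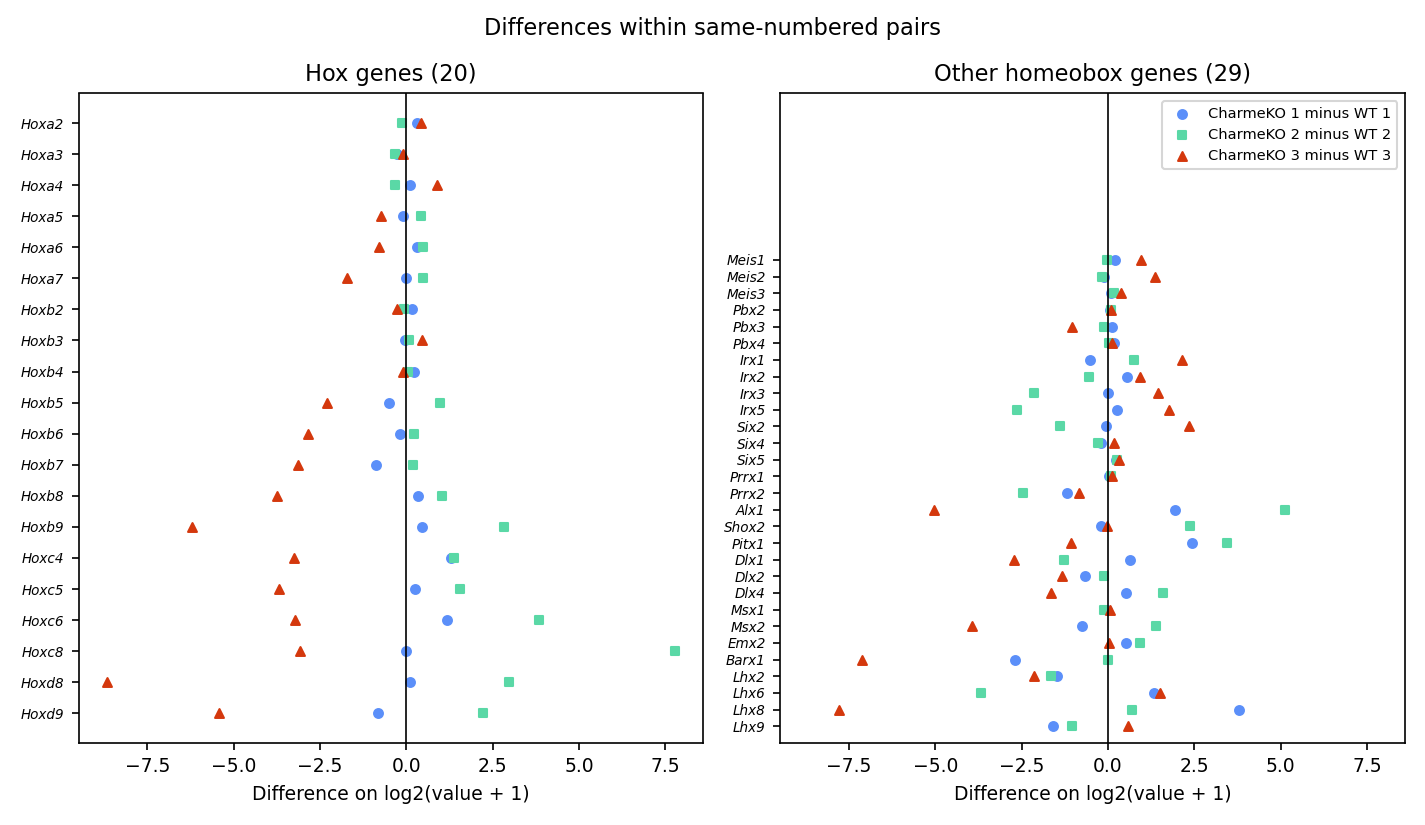
Difference of CharmeKO from WT within each same-numbered pair, on log2(value + 1), for 20 tested *Hox* genes (left) and 29 other tested homeobox genes (right), with 1 marker per pair. For the *Hox* genes numbered 5 to 9, the markers of pair 2 lie right of 0 and those of pair 3 left of it.

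Promoters of *Hox* genes are known to respond to retinoic acid in the embryo, and their windows are shown because *Hoxb8*, *Hoxc4* and *Hoxd8* spread widely between libraries while *Hoxb4*, from the same cluster as *Hoxb8*, did not. RefSeq sequences of GRCm38.p6 were matched by symbol for 37 of the 62 genes, each a window of 300 bases with 250 before and 50 after the annotated start. They are given from 5′ to 3′ on the plus strand, at chr11:96318017-96318316 for *Hoxb4*, chr11:96281655-96281954 for *Hoxb8*, chr15:103034145-103034444 for *Hoxc4* and chr2:74704365-74704664 for *Hoxd8*. The *Hoxc4* window lies inside the gene as GENCODE gives it (103018934 to 103036852), so GENCODE and RefSeq differ in its start. Capitals mark the letters AGGTCA, the core letters of retinoic acid receptor sites, on either strand.
Hoxb4: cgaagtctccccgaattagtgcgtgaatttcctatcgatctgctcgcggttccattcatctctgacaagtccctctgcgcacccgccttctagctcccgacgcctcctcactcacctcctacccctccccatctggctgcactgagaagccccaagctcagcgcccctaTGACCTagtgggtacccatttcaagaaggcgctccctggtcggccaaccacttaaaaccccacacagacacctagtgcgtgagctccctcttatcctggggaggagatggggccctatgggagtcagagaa
Hoxb8: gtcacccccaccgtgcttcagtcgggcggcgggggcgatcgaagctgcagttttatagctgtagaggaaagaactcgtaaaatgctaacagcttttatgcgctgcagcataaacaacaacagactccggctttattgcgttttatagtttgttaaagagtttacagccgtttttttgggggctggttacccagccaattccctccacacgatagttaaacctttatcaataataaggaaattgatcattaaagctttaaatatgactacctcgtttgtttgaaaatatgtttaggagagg
Hoxc4: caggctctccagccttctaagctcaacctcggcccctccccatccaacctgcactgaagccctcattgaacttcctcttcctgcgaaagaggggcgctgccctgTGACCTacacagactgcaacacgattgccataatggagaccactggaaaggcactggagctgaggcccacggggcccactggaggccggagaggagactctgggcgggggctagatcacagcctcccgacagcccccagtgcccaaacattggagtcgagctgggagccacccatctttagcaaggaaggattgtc
Hoxd8: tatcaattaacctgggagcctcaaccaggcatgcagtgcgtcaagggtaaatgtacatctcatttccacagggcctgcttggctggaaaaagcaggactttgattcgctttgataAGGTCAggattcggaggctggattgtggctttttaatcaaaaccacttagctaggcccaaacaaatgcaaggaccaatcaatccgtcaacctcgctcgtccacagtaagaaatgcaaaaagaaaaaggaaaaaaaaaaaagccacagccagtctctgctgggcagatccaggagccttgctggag

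AGGTCA or its complement was present in the windows of *Hoxb4*, *Hoxc4* and *Hoxd8* and not in that of *Hoxb8*. Of the 42 windows of homeobox genes, 7 held it (16.7%, against 16.3% of all 32851 promoter windows). These were 6 of the 14 windows of *Hox* genes (*Hoxa5*, *Hoxb4*, *Hoxc4*, *Hoxd3*, *Hoxd4* and *Hoxd8*) and that of *Dlx1*. The share among *Hox* genes alone was not tested. The letters AGGTCA were thus found in genes that were even between libraries and in genes that were not. The core of the Meis site, TGACAG, was found in 6 of the 42 windows of homeobox genes (14.3%, against 19.2% of all windows). The composite Pbx-Hox letters TGATTNAT were found in 2 (*Hoxa2* and *Lhx4*, 4.76%, against 3.22%) and the homeodomain palindrome TAATTA in 3 (*Emx2*, *Msx2* and *Prrx1*, 7.14%, against 5.29%). Both strands were searched, none of the 4 motifs contains another, and a match only describes the sequence. The median ratio of observed to expected CpG dinucleotides was 0.700 in these windows and 0.384 in all windows.

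The remaining *Hox* genes of the table were close to the limit of the depth. *Hoxd4* and *Hoxd3* share 52.3% and 62.3% of their exon length with overlapping genes, where reads may have been dropped in counting. They had at most 27.5 and 7.86 normalised reads, both in CharmeKO 2. *Hoxc9* had reads only in CharmeKO 1 and CharmeKO 2. *Hoxc13*, a gene of the posterior body, was the only one whose highest libraries were those numbered 1, with 15.4 normalised reads in CharmeKO 1 and 5.91 in WT 1, and *Hoxa10* stayed under 3 in each library.

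The Meis and Pbx genes, which encode partners of Hox proteins, varied less between libraries than most homeobox genes. *Meis1*, a cofactor needed for heart formation, had 1774, 3354 and 2658 normalised reads in WT and 2039, 3294 and 5174 in CharmeKO (log2 fold change 0.38, SE 0.391). *Meis2*, which acts in the cardiac neural crest, had 3401, 3967 and 1885 in WT and 3144, 3536 and 4897 in CharmeKO (log2 fold change 0.37, SE 0.323). For both genes CharmeKO 3 was the highest library, and the groups overlapped.

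*Meis3* (chromosome 7, 16175090.0 to 16186504, plus strand) was the 1 homeobox gene whose groups did not overlap (1 of 54, against 4.11% of all genes). It had 1026, 1005 and 946 normalised reads in WT and 1102, 1125 and 1241 in CharmeKO. The means were 992 ± 41.6 and 1156 ± 74.7 (mean ± SD, n = 3 each), and the log2 fold change was 0.22 (SE 0.154). The 95% interval ran from -0.15 to 0.59, and the gene did not pass the test (limma unadjusted p = 0.20, adjusted p = 0.9999).

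Of the Pbx genes, *Pbx2* and *Pbx4* were slightly higher in all 3 pairs, with log2 fold changes of 0.085 (SE 0.264) and 0.11 (SE 0.316), and *Pbx3* was at -0.35 (SE 0.277). The replicate number accounted for 97.8% of the variance of *Pbx2*, so most of its variation was shared by the 2 libraries of a pair. A large share was common, with a median of 73.8% over all genes and 65.2% over the 54 homeobox genes.

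The *Prrx* pair mark mesenchyme of limb, face and great vessels. *Prrx1* (chromosome 1, 163245119 to 163313710.0, minus strand) was high and even in every library, with 15907, 14755 and 20960.1 normalised reads in WT and 16258, 15717 and 22765 in CharmeKO. Its log2 fold change was 0.081 (SE 0.240, 95% interval -0.50 to 0.66).

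*Prrx2* (chromosome 2, 30834972 to 30881251, plus strand) was the 1 homeobox gene that any of the fits called. It had 622, 667 and 1581 normalised reads in WT and 271, 119.9 and 889 in CharmeKO, so that only CharmeKO 3 reached into the WT range. It was lower in CharmeKO in all 3 pairs, by 1.20, 2.47 and 0.83 on the log2 scale, and its log2 fold change was -1.50 (SE 0.756, limma unadjusted p = 0.091, adjusted p = 0.9999). With the replicate number as a block the SE fell to 0.353 and the unadjusted p to 0.011, while the adjusted p was 0.80. Without the block *Lhx2* had a limma unadjusted p of 0.090, so *Prrx2* had the lowest p of the homeobox genes in limma only with the block. DESeq2 with the block, which rests on the pairing by replicate number, was the 1 fit that called it (adjusted p = 0.028). That fit called 0.401% of all genes. Summed smooth muscle and pericyte markers were also lower in CharmeKO in all 3 pairs, at 3271, 696 and 5770 CPM in WT and 3074, 214 and 711 CPM in CharmeKO, and all 10 markers had negative log2 fold changes. None of the 10 was at 0 in more than 1 library, and their part in the result was not tested.

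Few other homeobox genes kept 1 direction in the 3 pairs. There were 5 lower in CharmeKO in all of them (*Dlx2*, *Hoxa3*, *Lhx2* and *Prrx2* among them, 9.26% of 54, against 14% of all genes) and 6 higher (*Emx2*, *Meis3*, *Pbx2*, *Pbx4*, *Prrx1* and *Six5*, 11.1%, against 16.4%). With the block, limma gave an unadjusted p under 0.05 for *Prrx2* and *Lhx2* (2 of 54, against 5.37%) and an adjusted p under 0.05 for none (0 of 54, against 0%).

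*Shox2*, a factor of the sinoatrial node and the sinus venosus, was read in every library. It had 383, 52.3 and 80.2 normalised reads in WT and 332, 276 and 78.3 in CharmeKO (log2 fold change 0.71, SE 0.885). High and low libraries of *Shox2* occurred in both groups. *Pitx1*, a hindlimb factor, had at most 20.2 normalised reads, in CharmeKO 1.

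*Alx1*, a paired-class factor of craniofacial mesenchyme, was highest in CharmeKO 2, like many high-numbered *Hox* genes. It had 30.5, 10.7 and 31.9 normalised reads in WT and 119, 406 and 0 in CharmeKO. Against the floor of 3 reads, *Alx1* was at least 156-fold higher in CharmeKO 2 than in CharmeKO 3. Its log2 fold change was 0.67 (SE 2.14).

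The Irx genes, which pattern the ventricle and its conduction system, had a different order of libraries. *Irx1* had 424, 922 and 194 normalised reads in WT and 293, 1574 and 871 in CharmeKO (log2 fold change 0.80, SE 0.769). *Irx2* ran from 317 in WT 1 to 959.9 in WT 2. *Irx3* and its neighbour on chromosome 8, *Irx5*, were highest in WT 2 and CharmeKO 3, with 248 and 177 normalised reads for *Irx3* and 410.0 and 457 for *Irx5*, while CharmeKO 2 was lowest for both, at 55.1 and 64.9. The highest and the lowest library both came from WT for *Irx2*, both from CharmeKO for *Irx5*, and from different groups for *Irx1* and *Irx3*, and the groups overlapped for all 4 genes.

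*Six2*, *Six4* and *Six5*, which act with Eya proteins in muscle, kidney and head mesenchyme, split in their behaviour. *Six5*, the most read, had 254, 820.0 and 829 normalised reads in WT and 301, 981 and 1035 in CharmeKO (log2 fold change 0.27, SE 0.654). *Six4* had 194, 647 and 643 in WT and 168, 534 and 726 in CharmeKO. Both were low in the libraries numbered 1. The replicate number accounted for 97.2% and 98.3% of their variance, against a median of 73.8% over all genes. *Six2*, in contrast, had 274, 35.2 and 104 in WT and 263, 12.8 and 531 in CharmeKO, so CharmeKO 2, the library highest in *Hoxb8*, *Hoxc6* and *Hoxd8*, was lowest in *Six2*.

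**Figure D4:**
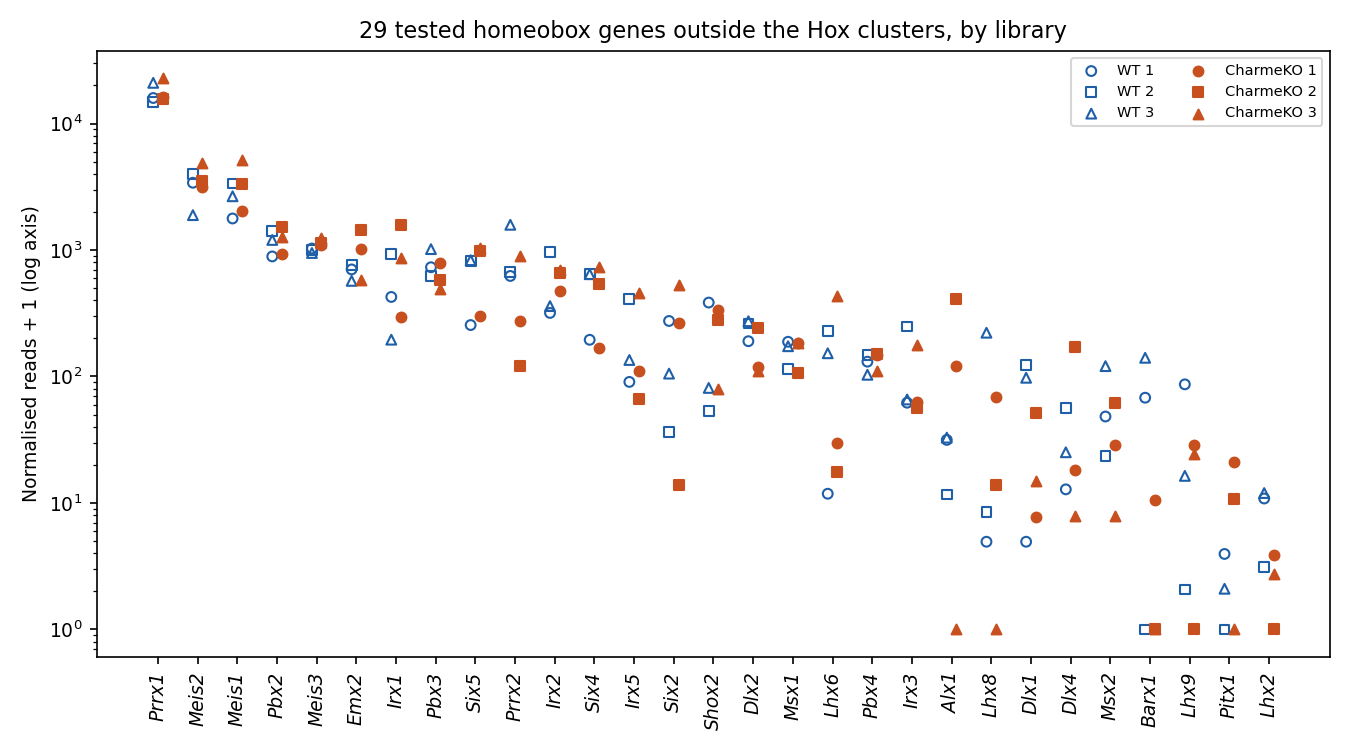
Values of 29 of the 33 tested homeobox genes outside the *Hox* clusters, ordered by mean level along the x axis, with normalised reads + 1 on a log y axis and 1 marker per library (open blue for WT, filled orange for CharmeKO, the shape giving the replicate number). *Prrx1*, *Pbx2* and the Meis genes lie close together over the 6 libraries, and genes such as *Alx1* and *Lhx8* reach from 0 to over 200 normalised reads.

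Of the factors of branchial arch and forebrain, *Dlx2* had 189, 262 and 272 normalised reads in WT and 118, 243 and 109 in CharmeKO (log2 fold change -0.70, SE 0.396, limma unadjusted p = 0.12). *Emx2*, a factor of cortex and urogenital ridge, had 701, 755 and 569 in WT and 1015, 1426 and 579 in CharmeKO (log2 fold change 0.49, SE 0.348, limma unadjusted p = 0.20). *Msx1*, a target of BMP signals in valve and limb mesenchyme, had 187, 114.2 and 172 in WT and 184, 106 and 182 in CharmeKO (log2 fold change -0.019, SE 0.369). *Msx1* differed little within the pairs, and for *Dlx2* and *Emx2* the groups overlapped. *Msx2*, *Dlx1* and *Dlx4* reached at most 119.7, 122.8 and 170.1 normalised reads.

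*Barx1*, a factor of stomach and jaw mesenchyme, had 67.0, 0 and 139.5 normalised reads in WT and 9.61, 0 and 0 in CharmeKO. Reads were thus found in WT 1, WT 3 and CharmeKO 1, and the log2 fold change of -3.27 (SE 2.02) rests on WT 1 and WT 3. With 0 reads in CharmeKO 3, WT 3 was at least 53.5-fold higher than that library.

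The LIM homeobox genes were low and varied widely between libraries. *Lhx6*, a factor of interneurons and jaw mesenchyme, had 10.8, 227 and 152 normalised reads in WT and 28.8, 16.7 and 433 in CharmeKO, and *Lhx8* had 3.94, 7.47 and 221 in WT and 67.3, 12.8 and 0 in CharmeKO. *Lhx2*, known from limb bud and liver stellate cells, had 10, 2 and 10 reads in WT and 3, 0 and 2 in CharmeKO. It was lower in CharmeKO in all 3 pairs (log2 fold change -1.75, SE 0.882, limma unadjusted p = 0.090 without and 0.026 with the block), on no more than 10 reads in any library. *Lhx9*, a gonad and epicardium factor, ran from 0 in CharmeKO 2 to 85.7 in WT 1.

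**Figure D5:**
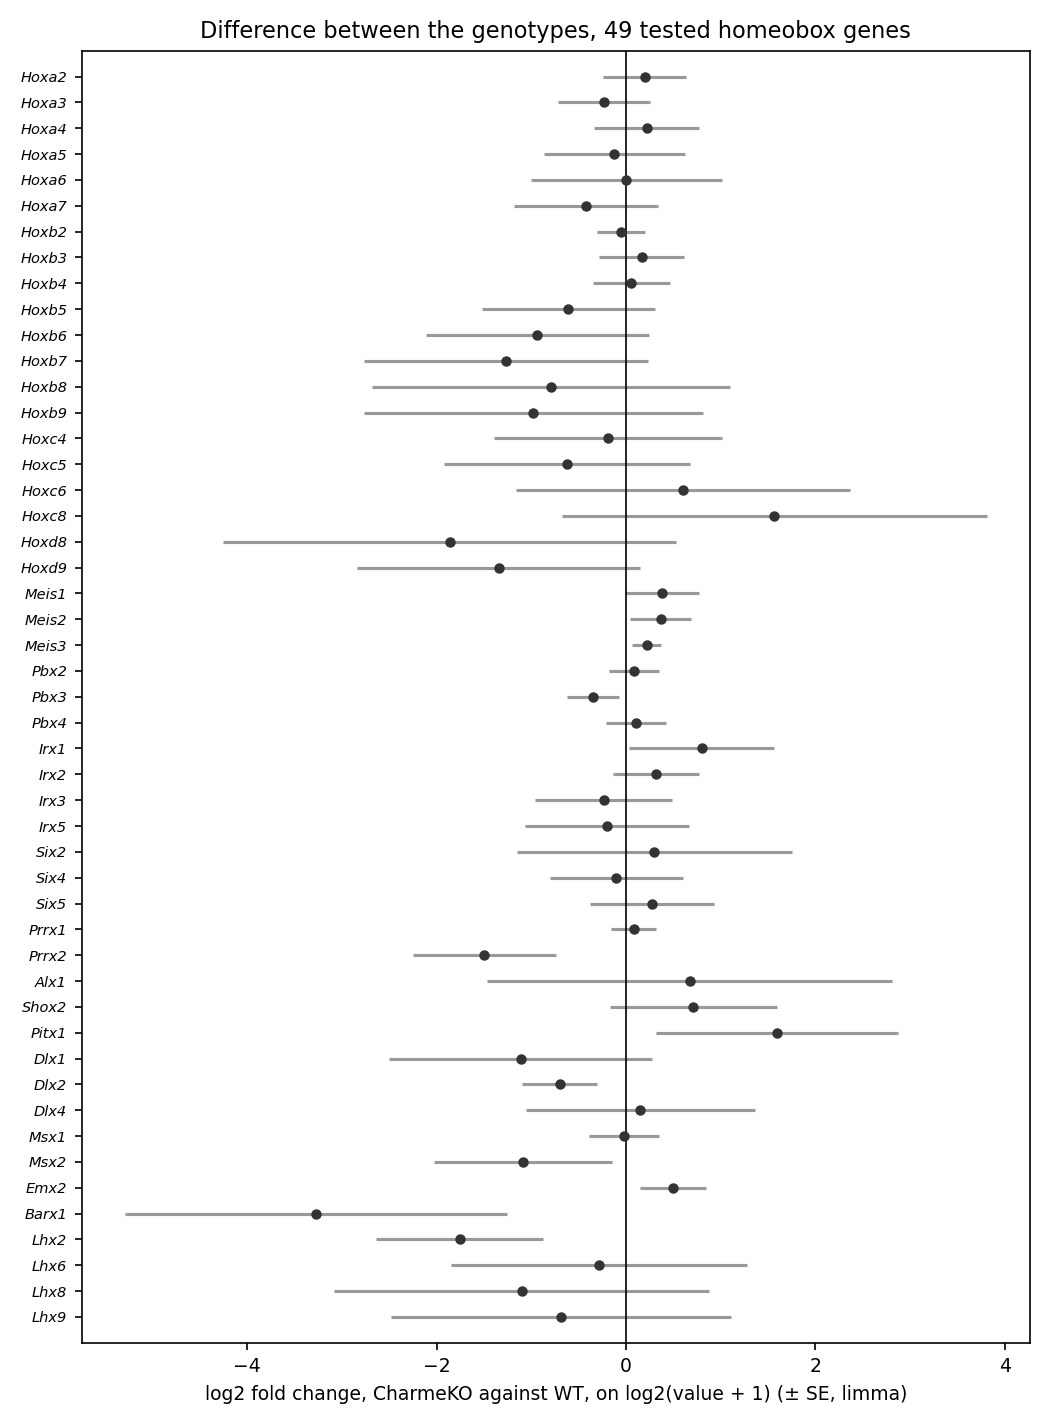
Log2 fold change of CharmeKO against WT on log2(value + 1), with its SE from limma (bars), for 49 of the 54 tested homeobox genes (y axis). No gene passed the test, and the bars of *Hoxc8*, *Hoxd8* and *Alx1* are the widest, with SEs of 2.24, 2.39 and 2.14.

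Genes that work with the homeobox factors were counted from lists. Of 5 further TALE-class partners, 1 was lower and 4 were higher in CharmeKO, with *Tgif2*, a repressor of TGF-beta and retinoic acid signals, at 164, 361 and 275 normalised reads in WT and 212, 679 and 597 in CharmeKO (log2 fold change 0.80, SE 0.527). Of 6 partners of these factors from the Eya and Dach families 4 were lower, *Eya1* among them with 15.8, 2.14 and 9.89 normalised reads in WT and 9.61, 0.983 and 0 in CharmeKO (log2 fold change -1.59, SE 1.12). Of 10 LIM homeodomain relatives and partners 7 were higher, with *Ssbp4* at 2184, 3521 and 2478 normalised reads in WT and 2704, 4473 and 3402 in CharmeKO (log2 fold change 0.37, SE 0.264). The groups overlapped for each of these 3 genes. Limma, with p-values adjusted over all genes, called 0 genes in these lists and the 4 that follow, cell markers apart, as did DESeq2 with the block, and an unadjusted limma p under 0.05 was found for 1 of their genes, *Tbx2*.

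The Polycomb and trithorax regulators, which hold *Hox* clusters silent or active, had a median log2 fold change of 0.033 over 29 genes. Of these, 12 were lower and 17 higher. With the replicate block, limma gave an unadjusted p under 0.05 for 3 of the 29, against 5.37% of all genes. *Ezh2*, the methyltransferase of Polycomb complex 2, had 947, 561 and 926 normalised reads in WT and 913, 496 and 1162 in CharmeKO (log2 fold change 0.033, SE 0.378). *Kdm6a*, an H3K27 demethylase, had the lowest p of the list without the block (log2 fold change -0.42, SE 0.264, limma unadjusted p = 0.16). It had 797, 1343 and 1208 normalised reads in WT and 671, 829 and 978 in CharmeKO. None of the 29 passed the test.

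The non-coding RNAs of the clusters were read as well, 7 of them with enough reads to be tested, 1 lower and 6 higher. *Hoxb5os*, a transcript of the *Hoxb* cluster, had 11.8, 47.0 and 175 normalised reads in WT and 4.81, 567 and 41.7 in CharmeKO. WT 2, WT 3 and CharmeKO 2 were its 3 highest libraries, as for *Hoxb5*. *Hotairm1*, from the anterior end of the *Hoxa* cluster, had 13.8, 33.1 and 37.4 in WT and 19.2, 38.3 and 64.4 in CharmeKO (log2 fold change 0.48, SE 0.640). *Halr1* had 3.94, 11.7 and 3.30 normalised reads in WT and 10.6, 29.5 and 7.83 in CharmeKO (log2 fold change 1.18, SE 0.754).

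Of 14 genes of retinoic acid synthesis, binding and breakdown, 7 were lower and 7 higher in CharmeKO. *Aldh1a2*, a retinoic acid synthase of mesoderm and epicardium, had 688, 40.6 and 1420.5 normalised reads in WT and 669, 58.0 and 67.8 in CharmeKO. *Cyp26b1*, an enzyme that breaks retinoic acid down, had the lowest p of the list, with 109, 80.1 and 364 normalised reads in WT and 74.0, 29.5 and 204 in CharmeKO (log2 fold change -0.93, SE 0.857). *Aldh1a2* was high in WT 1 and CharmeKO 1, where the high-numbered *Hox* genes were low, and also in WT 3, where they were high.

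Cardiac field and left-right factors were counted as 10 lower and 7 higher of 17. *Tbx2*, a repressor of chamber genes, had 259, 564 and 1678 normalised reads in WT and 253, 109 and 92.2 in CharmeKO, without overlap, at -2.19 (SE 0.733, limma unadjusted p = 0.022, adjusted p = 0.9999). *Lefty1*, a left-sided inhibitor of Nodal, was also without overlap, with 485, 433 and 191 normalised reads in WT and 533, 639 and 522 in CharmeKO (log2 fold change 0.71, SE 0.385, limma unadjusted p = 0.11). *Isl1*, a second heart field factor, was highest in CharmeKO 3 with 499 normalised reads, the library in which *Hoxd8* and *Alx1* had 0 reads, against 5.34 to 91.6 in the other libraries. *Tbx20* had 7948, 101 and 1395 in WT and 6235, 343 and 537 in CharmeKO and was highest in the libraries numbered 1.

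Marker levels of other cells moved between the same libraries. Summed mesothelial markers were 232, 37.9 and 59.2 CPM in WT 1 to 3 and 234, 61.4 and 17.3 CPM in CharmeKO 1 to 3. They were highest in WT 1 and CharmeKO 1, where the *Hox* genes numbered 5 to 9 were low, and lowest in CharmeKO 3, where most of these were low too. Summed haematopoietic markers were 188, 104 and 40.3 CPM in WT and 402, 308 and 17.8 CPM in CharmeKO, and endothelial markers lay between 31.2 and 149 CPM, Schwann cell markers between 0.684 and 7.16 CPM. Of the listed markers of these cells, 0 were without reads in all 6 libraries among those analysed, which again holds for every gene of the table. *Emcn* and *Krt8* were not analysed here, and the part of these cells in the spread of the homeobox genes was not tested.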

How the data were processed

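Poly(A) RNA of cultured CFs was sequenced with a directional kit, 3 libraries each for WT and CharmeKO. Per the labels and the study's methods, STAR served the authors for alignment and for counting per gene on the reverse strand, thinly read genes were left out, and counts were divided by DESeq2 size factors. What was deposited is therefore a normalised signal. Reads that overlap more than 1 gene are dropped by this counting. The methods name GRCm39, while the Ensembl release they name was built on GRCm38. Coordinates, exon lengths and overlaps given here are those of GENCODE M21 (GRCm38) and promoter windows those of RefSeq (GRCm38.p6).

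Dividing by the smallest positive value of a library gave back its reads, which were whole for 100% of 116676 values (tolerance 1e-06). The totals were 38330019 to 46797446 reads, so 0 reads allow up to 3 reads, or 0.0641 to 0.0783 CPM. Intervals and floors cover counting error only.

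The main test was limma (3.58.1, R 4.3.3) with trend on log2(value + 1), genotype only, over the 15948 genes that had 10 or more reads in 2 or more libraries, two-sided, with Benjamini-Hochberg adjusted p under 0.05. Fold changes on this scale understate those of low genes. edgeR (4.0.16) on the recovered reads called 0 genes, and DESeq2 (1.42.0) called 8 without and 64 with the replicate block. The methods were tested on simulated reads with known changes, drawn with the same dispersion for all genes and no effect of replicate number. That setting lacks the wide spread of these genes, so it does not show how well changes in them would be found. Scaling, pseudocount, filter, replicate block and leaving out libraries were varied. Plots were drawn with matplotlib 3.10.9.

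Same-numbered libraries deviated together from their group means (r = 0.762, 0.514 and 0.217 over 15948 genes, against -0.643 to 0.222 for other pairs), so the replicate numbers, taken from the sample titles, were used as pairs. The r of 0.217 for pair 3 was no higher than that of WT 2 with CharmeKO 3 (0.222), so r did not set this pair apart. The labels do not say what same-numbered libraries share, and p-values measure the spread between these pooled cultures.

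The genes and lists were chosen with earlier results of these data known. The single values of 5 homeobox genes, some of which the rule below would name, are not reported here, and all counts include them. Values in every library were given for the most read gene of each family, genes without overlap or with an unadjusted p under 0.05, genes with over 10 times between libraries and a mean of at least 50 normalised reads, genes of known cardiac or mesenchymal role, and, of related lists, up to 2 genes with the lowest p. Other genes (*Ezh2*, *Aldh1a2*, *Hoxb5os*, *Isl1*, *Tbx20* and the remaining homeobox genes) were named after their values had been seen. Native CFs were not analysed here.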

Additional observations from a re-analysis of the deposited data

How the results depend on the processing

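With 3 libraries per group and ratios of up to 470.4 between libraries, a genotype effect on the high-numbered *Hox* genes could be neither shown nor bounded closely, and genes under about 10 reads rest on counting. Of 28 named genes, 9 kept the sign of their log2 fold change in every alternative that gave them a value (*Hoxb7*, *Meis1*, *Meis3*, *Irx1*, *Prrx2*, *Dlx2*, *Emx2*, *Barx1* and *Lhx2*) and 19 did not. There were 20 alternatives, and the filter of 10 reads in all 6 libraries removed 8 of the 28 genes. Where a value changed, the cause was not tested.

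Over all genes, DESeq2 called 8 genes without and 64 with the replicate block, against 0 with limma, and with the block 1 homeobox gene (*Prrx2*). The block, which follows the replicate numbers, changed no other call on these genes in limma, edgeR or DESeq2. The remaining fits, edgeR, other scalings, pseudocounts and filters included, called 0 genes. The number of homeobox genes lower in CharmeKO, 32 of 54, was 19 without WT 3, 21 without CharmeKO 1, 38 without WT 1 and 19 with the block and without pair 3. Their median of -0.14 lay between -0.54 without WT 1 and 0.12 without WT 3. The tilt was smaller in the fits on recovered reads. Without the block, edgeR and DESeq2 each had 28 of the 54 lower, with medians of -0.0043 and -0.013. With the block each had 30 lower, with medians of -0.073 and -0.080.

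Signs reversed in these fits, with the log2 fold changes they gave. edgeR and DESeq2 without the block gave 0.95 and 0.94 for *Hoxd8*, and 0.30 and 0.29 for *Lhx6*. With the block they gave 0.024 and 0.072 for *Hoxc4*, 0.0032 and 0.074 for *Lhx6*, and 0.0097 and 0.32 for *Lhx8*. Plain library totals gave 0.015 for *Msx1*. With the replicate block and without pair 3, limma gave 0.17 for *Hoxa5*, 0.022 for *Hoxb6*, 0.69 for *Hoxb8*, 1.64 for *Hoxb9*, 1.34 for *Hoxc4*, 0.91 for *Hoxc5*, 1.55 for *Hoxd8*, -0.14 for *Meis2*, -0.73 for *Six2* and 2.25 for *Lhx8*. Without pair 2 it gave -1.01 for *Hoxc6*, -1.54 for *Hoxc8*, -1.55 for *Alx1*, -0.12 for *Shox2*, 0.024 for *Msx1* and 1.42 for *Lhx6*.

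Leaving out 1 library at a time, the log2 fold change ranged from -0.71 (without WT 1) to 0.55 (without WT 3) for *Hoxa5*, from -0.17 (without CharmeKO 3) to 0.59 (without CharmeKO 1) for *Hoxb3*, from -2.53 (without WT 1) to 0.38 (without CharmeKO 1) for *Hoxb8*, and from -2.72 (without CharmeKO 2) to 0.46 (without CharmeKO 3) for *Hoxb9*. It ranged from -1.27 (without WT 1) to 0.80 (without WT 3) for *Hoxc4*, from -1.66 to 0.47 under the same settings for *Hoxc5*, from -1.07 (without CharmeKO 2) to 1.83 (without WT 3) for *Hoxc6*, from -0.97 (without CharmeKO 2) to 2.95 (without CharmeKO 1) for *Hoxc8*, and from -4.18 (without CharmeKO 2) to 0.88 (without CharmeKO 3) for *Hoxd8*. Without CharmeKO 2 and without CharmeKO 3 the values were -1.07 and 3.27 for *Alx1*, the ends of its range. The ranges were -0.75 (without CharmeKO 3) to 1.88 (without CharmeKO 2) for *Six2*, -0.29 (without WT 1) to 0.85 (without CharmeKO 1) for *Six5*, -0.089 (without CharmeKO 3) to 0.23 (without WT 3) for *Prrx1*, -0.23 (without WT 2) to 0.24 (without CharmeKO 2) for *Msx1*, -1.69 (without CharmeKO 3) to 0.61 (without CharmeKO 2) for *Lhx6*, and -2.50 (without CharmeKO 1) to 0.60 (without WT 3) for *Lhx8*. Without a change of sign, they were -2.02 (without WT 1) to -0.20 (without WT 3) for *Hoxb6*, -2.67 (without CharmeKO 2) to -0.26 (without CharmeKO 1) for *Hoxb7*, 0.046 (without CharmeKO 3) to 0.72 (without CharmeKO 1) for *Meis1*, 0.045 (without WT 3) to 0.58 (without WT 2) for *Meis2*, 0.24 (without WT 3) to 1.46 (without CharmeKO 1) for *Irx1*, 0.14 (without WT 2) to 1.56 (without WT 1) for *Shox2*, 0.19 (without CharmeKO 2) to 0.84 (without CharmeKO 3) for *Emx2*, -5.47 (without WT 2) to -1.91 (without WT 3) for *Barx1*, -1.06 (without CharmeKO 2) to -0.49 (without CharmeKO 3) for *Dlx2*, and -2.37 (without WT 2) to -1.18 (without CharmeKO 2) for *Lhx2*. *Prrx2* stayed between -2.26 (without CharmeKO 3) and -0.82 (without CharmeKO 2), and *Meis3* between 0.17 and 0.25.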
